A study of Homo sapiens with 4 samples.

Results

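The 49 genes described here encode the machinery that takes messenger RNA apart: the deadenylases, the decapping enzymes and their cofactors, the RNA exosome, the exonucleases, the factors of nonsense-mediated decay and a few proteins of microRNA silencing. They were chosen by gene symbol from a fixed list, all 49 were found among the 23615 genes of the deposited table, and all 49 passed the filter on low counts. The question was how far the mRNAs of these genes were recovered with SIRT7, a lysine deacylase of the nucleus and nucleolus. Both groups came from a single HEK293T line, a human embryonic kidney line, which stably overexpressed Flag-SIRT7 and was at passage 10 to 15. The 2 input libraries held its total RNA, and the 2 RNA immunoprecipitation (RIP) libraries held the RNA recovered with the tagged protein on an anti-Flag gel. Every group thus carried the transgene, and no pull-down from cells without it was analysed here, so RNA that sticks to the gel itself is part of each RIP value. No label states that replicate libraries were made from separate cultures, and the p-values therefore measure only the spread between these libraries, which may be technical.

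An mRNA usually begins to decay when its poly(A) tail is shortened, first by the PAN2-PAN3 pair and then by the CCR4-NOT complex. The shortened mRNA is decapped by DCP2 and degraded from its 5′ end by XRN1, or degraded from its 3′ end by the exosome, a ring of inactive subunits that feeds RNA to attached nucleases with the help of the SKI complex. Nonsense-mediated decay, led by the helicase UPF1, and microRNA silencing, through the TNRC6 proteins, send chosen mRNAs into the same routes. The measurements below are of the mRNAs that encode these proteins, not of the proteins or of decay itself.

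The libraries held 17310753 to 18131602 fragments on genes in input and 25655455 to 25998032 in RIP. SIRT7 itself stood at 1148 and 1181 CPM (fragments scaled to TMM library sizes) in input and at 43950 and 43200 CPM in RIP, the same order as the labels. Of 6 genes listed as typical of HEK293 cells all were tested, with a summed level of 284 to 316 FPKM (the authors' level per transcript length) in input and 484 to 487 FPKM in RIP. Of 20 markers of other cell types 6 were tested and 5, among them the globin gene HBB and the insulin gene INS, had no fragment in any library. The summed level of the 20 was 5.69 to 6.06 FPKM in input and 5.59 to 7.22 FPKM in RIP.

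The decay genes as a group took a smaller share of the RIP libraries. Their fragments made up 0.521% and 0.497% of the input libraries and 0.258% of each RIP library. Such shares are of library totals, on which the median of all genes was lower in RIP as well. That median was -0.76 on the log2 scale, where the median decay gene was at -1.10. Of the 49 genes 13 (26.5%) were higher in RIP and 28 (57.1%) lower at an adjusted p under 0.05 in edgeR's quasi-likelihood test, and 8 passed on neither side. Among all 14555 genes tested 38.0% were called higher and 39.7% lower, or 77.7% in all. The difference between these shares and those of the decay genes was not tested. The input and RIP libraries did not overlap for 43 of the 49 (87.8%), against 89.2% of all genes. At least 2-fold changes were found for 3 decay genes higher and 12 lower, where the background was 17.5% and 19.1%. Both groups are bulk RNA of the same line, so each fold change compares recovery in RIP with input. Differences between single cells cannot be seen in such libraries. The decay genes were covered by 196 fragments (UPF3A in the first RIP library) to 8672 fragments (CNOT1 in the first input library). The strand setting of the counting is not given in the sources used here, and 10 of the 49 genes overlap a neighbouring protein-coding gene, named below, whose reads may be shared.

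TMM puts the median of all genes at -0.03 on the log2 scale. Scaling by library totals alone lowers every decay gene by 0.73, moves the median of all genes to -0.76 and leaves 3 decay genes higher and 41 lower (background 17.0% and 65.5%, or 82.6% in all). Distances to the median gene stay as they are under either scaling.

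The groups differed in their medians, and also in transcript length. The median log2 fold change was 0.49 for the 12 exosome genes, 0.12 for the 9 decapping and 5′ decay genes, -0.32 for the 7 genes of nonsense-mediated decay, -0.54 for the 10 CCR4-NOT genes, -0.83 for PAN2, PAN3 and PARN, and -1.32 for the microRNA silencing genes. With library totals the exosome and decapping medians turned to -0.24 and -0.61. Measured from the median of all genes, the distances in the same order of groups were 0.52, 0.15, -0.29, -0.51, -0.80 and -1.29, and after the length correction described below -0.06, -0.13, -0.03, -0.44, -0.36 and -0.12. The median effective length, in units of the median tested gene, was 0.54 for the exosome, 1.46 for decapping, 1.87 for nonsense-mediated decay, 1.07 for CCR4-NOT, 1.90 for PAN2, PAN3 and PARN and 3.39 for microRNA silencing. The remaining group, the SKI complex with DIS3L2 (4 genes), had a median log2 fold change of -0.21 and a median length of 1.26. Its distance to the median of all genes was -0.18, and -0.10 after correction. Across the 49 genes fold change and length had a Spearman rho of -0.76, against -0.60 across all 14555 genes. This is a description across genes that share the same libraries and are not replicates.

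**Figure D1:**
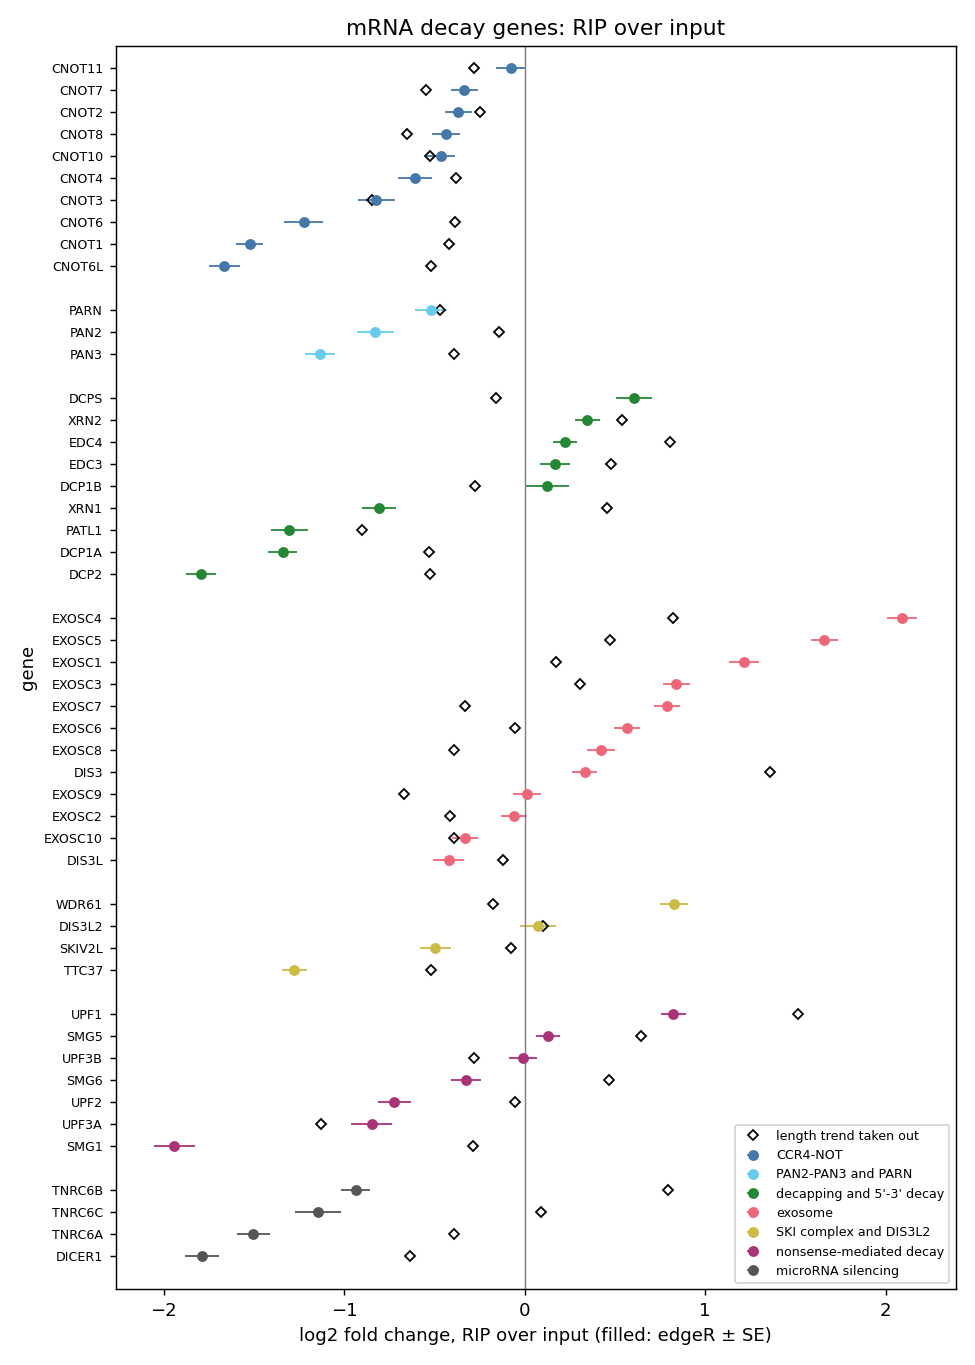
Log2 fold change of RIP over input for each of the 49 decay genes, grouped by complex and ordered within each group; filled points are the edgeR values on the TMM scale with their SE, and open diamonds the values after the length trend was taken out. Filled points of CCR4-NOT lie left of 0 from -1.66 to -0.08, and those of the exosome reach 2.09; on library totals every filled point moves left by 0.73, which turns the exosome median to -0.24.

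The smooth trend of each library on length was then taken out, which sets each gene against others of its length. By construction these length-corrected values hardly depend on the scaling, since a common shift of a library is taken out with its trend. TMM and library totals gave values within 0.015 of each other for every decay gene. After correction 13 decay genes were again higher and 28 lower (background 34.7% and 35.5%, or 70.3% in all), but they were not the same genes. Of the 41 calls 28 kept their direction, 7 were lost and 6 turned, while 7 genes gained a call. EXOSC7, EXOSC8 and WDR61 turned from higher to lower, and XRN1, SMG6 and TNRC6B from lower to higher. The rank correlation with length over the members was 0.02 after correction.

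The uncorrected calls can also be set out in 5 bins of 2911 tested genes each, ordered by length. The shortest bin held 8 decay genes, 7 of them higher and none lower, where 75.4% of all genes of that length were higher. In the middle bin, with lengths of 0.84 to 1.2, none of 9 decay genes was higher and 7 were lower, where 35.5% of genes were higher and 34.4% lower. The longest bin held 18, of which 16 were lower, where 79.5% of genes were. UPF1 and DIS3 were the higher ones there, where 6.53% of genes were higher. In the second bin 2 of 6 decay genes were higher, 1 was lower and their median was 0.06, where 54.3% and 18.6% of genes were and the median was 0.40. In the fourth bin 2 of 8 were higher and 4 lower, with a median of -0.15, where 18.2% and 57.0% of genes were and the median was -0.41.

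**Figure D2:**
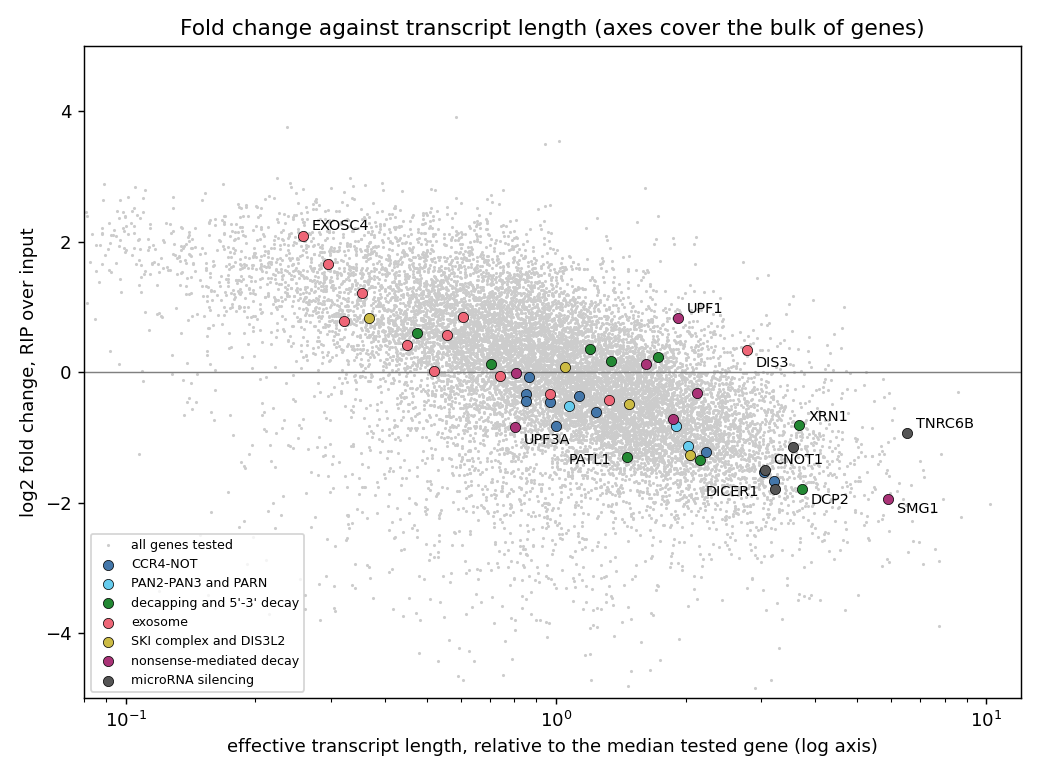
Log2 fold change of RIP over input (TMM scale) against effective transcript length relative to the median tested gene (log axis); grey points are all tested genes within the axes and coloured points the 49 decay genes. EXOSC4 sits at the short, high end and SMG1 at the long, low end, while UPF1 and DIS3 stand above and UPF3A and PATL1 below most genes of their length; on library totals all points move down by 0.73 and DIS3 falls below 0.

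CCR4-NOT is the main deadenylase complex. Of its 10 genes 9 were lower in RIP (90.0%, background 39.7%) and none higher, and library totals gave 10 lower (background 65.5%). Its share of fragments went from 0.116% ± 0.00384 (SD, n = 2) in input to 0.0387% ± 0.000965 (n = 2) in RIP. On library totals its median log2 fold change was -1.27, where that of all genes was -0.76. After length correction all 10 were lower (background 35.5%), from -0.25 for CNOT2 to -0.85 for CNOT3, with a group median of -0.47. The median lay 0.51 below that of all genes before and 0.44 below it after correction. Without the second RIP library 9 of the 10 were called after correction, as CNOT11 lost its call (-0.20, adjusted p = 0.06763).

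CNOT1, the scaffold on which the other subunits assemble, stood at 369 and 335 CPM in the input libraries and at 118 and 126 in RIP. It was 2.88-fold lower (log2 fold change -1.52, SE 0.0746, adjusted p = 3.8e-11) and at -0.42 after length correction. Its gene span overlaps that of SETD6. CNOT2 and CNOT3, which form the NOT module that contacts regulators, were at -0.37 and -0.82. CNOT3, whose span overlaps that of LENG1, has the length of the median gene, and was at -0.85 after correction. CNOT4, a ubiquitin ligase that associates loosely with the complex, was at -0.61 and the N-terminal module subunit CNOT10 at -0.46. CNOT11, the partner of CNOT10, stood at 65.9 and 71.9 CPM in input and 68.4 and 62.2 in RIP. Its libraries overlapped and it did not pass the test (-0.08, adjusted p = 0.3849), though at -0.28 it did after length correction.

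The catalytic subunits come in pairs of paralogs. CNOT6L, a nuclease of the CCR4 type, had the lowest log2 fold change of the complex (-1.66, SE 0.0883, adjusted p = 9.4e-11). It had 60.4 and 57.8 CPM in input against 19.5 and 17.9 in RIP. Its paralog CNOT6 had 68.3 and 53.7 CPM in input and 24.6 and 27.7 in RIP (-1.23, SE 0.110). Both are long mRNAs, at 3.20 and 2.23 times the median gene, and both were closer to 0 after correction, at -0.52 and -0.39. CNOT7, a nuclease of the CAF1 type and the most abundant of the complex per length by its mean FPKM in either group (CNOT1 was above it in the first input library), had 98.2 and 108 CPM in input and 80.3 and 83.0 in RIP. CNOT8, its paralog, had 57.7 and 59.1 CPM in input and 42.8 and 43.6 in RIP. In none of these genes did the groups overlap, which held for 89.2% of all genes. CNOT7 and CNOT8 were at -0.33 and -0.44, are shorter than the median gene (0.853 and 0.850), and were lower still after correction, at -0.55 and -0.65.

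The deadenylase genes outside the complex were lower too (all 3, background 39.7%). PARN, a nuclease that trims the tails of many small nuclear RNAs, had the highest log2 fold change of the 3 (-0.52, SE 0.0884, adjusted p = 6.1e-05). It had 45.2 and 48.6 CPM in input and 30.7 and 34.6 in RIP. PAN3, the adaptor of the PAN2-PAN3 pair, had the lowest log2 fold change (-1.13, SE 0.0837, adjusted p = 4.5e-09). It had 53.2 and 51.5 CPM in input and 23.6 and 24.1 in RIP. PAN2, the nuclease of that pair, was at -0.83. None of the 3 overlapped between groups, and neither did 89.2% of all genes. After correction PARN and PAN3 were at -0.47 and -0.39, while PAN2 was at -0.14 and not called (adjusted p = 0.1868). All 6 genes of poly(A) nucleases (CNOT6, CNOT6L, CNOT7, CNOT8, PAN2 and PARN) were lower (background 39.7%), and 5 were lower after correction (background 35.5%). With library totals all 6 were lower, where 65.5% of all genes were.

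Of the 12 exosome genes 8 were higher in RIP (66.7%, background 38.0%) and 2 lower (16.7%, background 39.7%) on the TMM scale, while 3 were higher and 7 lower with library totals and 5 and 5 after length correction. The shares were nearer to the background in these alternatives: 25.0% and 58.3% with library totals, against 17.0% and 65.5% of all genes, and 41.7% each after correction, against 34.7% and 35.5%. Their share of fragments changed less than that of CCR4-NOT, from 0.107% of each input library to 0.0923% of each RIP library. The median of the group lay 0.52 above that of all genes and, after correction, 0.06 below it.

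Among the ring and cap subunits, EXOSC1 to EXOSC9, 7 of 9 were higher and none lower on the TMM scale, 3 and 4 with library totals and 4 and 4 after correction. The shares of all genes were 38.0% and 39.7%, 17.0% and 65.5%, and 34.7% and 35.5%, in the same order. These subunit genes are short, with a median length of 0.451. In the shortest and second length bins 75.4% and 54.3% of all genes were higher on the TMM scale, and 9.21% and 18.6% lower. EXOSC4, a ring subunit, had the highest log2 fold change of all decay genes, with 30.4 and 35.3 CPM in input and 144 and 136 in RIP. It was 4.26-fold higher (log2 fold change 2.09, SE 0.0838, adjusted p = 5.1e-12), and stayed higher with library totals (1.36) and after correction (0.82). EXOSC5, also of the ring, was 3.16-fold higher and EXOSC1, of the cap, 2.32-fold, and both were higher with library totals too, at 0.93 and 0.48. After correction EXOSC5 was at 0.48 and EXOSC1 at 0.18. The corrected call of EXOSC1 (adjusted p = 0.04396) was lost when any single library was left out, and on library totals.

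The cap subunit EXOSC3 was 1.79-fold higher and at 0.31 after correction. The ring subunits EXOSC7, EXOSC6 and EXOSC8 were 1.73-fold, 1.48-fold and 1.34-fold higher. With library totals EXOSC3 and EXOSC7 were not called (0.11 and 0.06), and EXOSC6 and EXOSC8 were lower. After correction EXOSC7 and EXOSC8 were lower, at -0.33 and -0.39, and EXOSC6 was at -0.05. EXOSC2, of the cap, and EXOSC9, of the ring, overlapped between groups and did not pass the test (-0.06 and 0.01). They were lower after correction (-0.41 and -0.67). The spans of EXOSC8 and EXOSC9 overlap those of SUPT20H and CCNA2.

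Subunits of the ring and cap, which the complex holds in equal number, were at similar levels per length in input. From the lowest to the highest gene their FPKM differed 2.24-fold in the first input library (23.9 for EXOSC1 to 53.6 for EXOSC2) and 1.93-fold in the second. In RIP the span was 5.71-fold and 5.01-fold, from 33.9 and 36.6 FPKM for EXOSC9 to 194 and 183 for EXOSC4. The order of the genes thus differed between input and RIP, with EXOSC4 rising to the top from 40.1 and 47.4 FPKM.

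**Figure D3:**
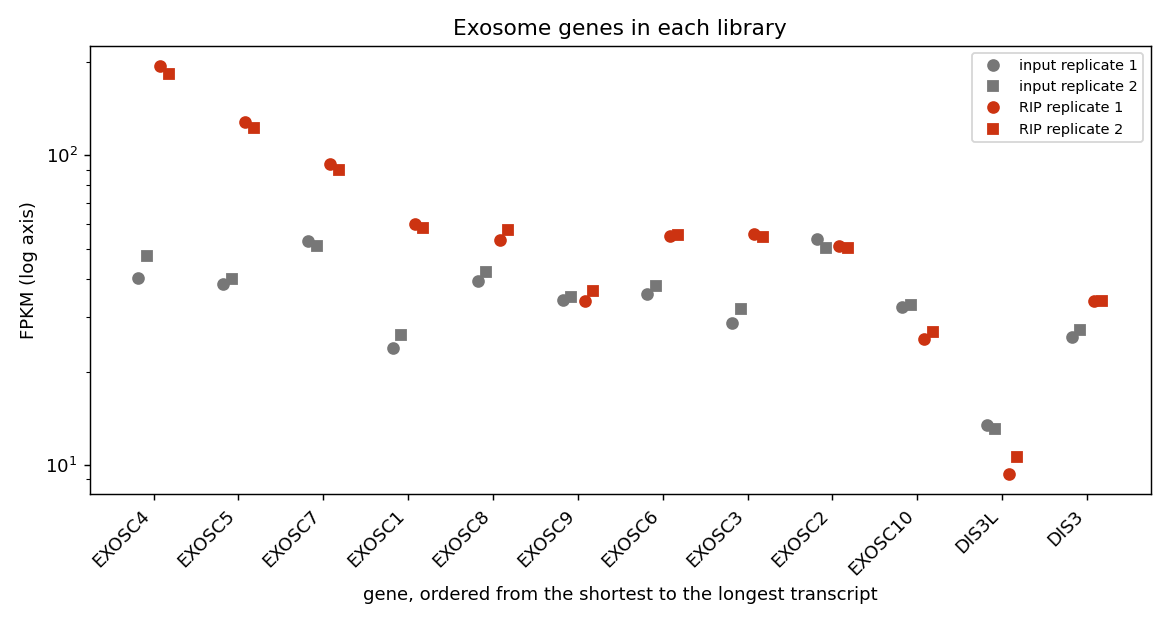
FPKM (log axis) of the 12 exosome genes in each of the 4 libraries, ordered from the shortest to the longest transcript; grey symbols are input, red symbols RIP, with circles for the first and squares for the second replicate. On this authors' scale EXOSC4 and EXOSC5 lie farthest above their input values, EXOSC9 and EXOSC2 lie near them and EXOSC10 and DIS3L below; on library totals EXOSC6, EXOSC8 and DIS3 turn from higher to lower, and EXOSC2 and EXOSC9 are called lower.

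The nucleases attached to the ring behaved differently from each other. DIS3, the nuclear catalytic subunit, had 211 and 219 CPM in input and 269.8 and 271 in RIP (log2 fold change 0.33, SE 0.0668, adjusted p = 3.0e-04). With library totals it turned to -0.40. Its mRNA is 2.77 times as long as the median gene, and after correction it was at 1.36 (SE 0.0654, adjusted p = 4.8e-12), where EXOSC4 was at 0.82. The span of DIS3 overlaps that of BORA. DIS3L, its cytoplasmic paralog, had the lowest log2 fold change of the exosome genes (-0.42, SE 0.0862). It had 52.5 and 49.6 CPM in input and 35.7 and 40.6 in RIP. After correction it was at -0.12 and not called. EXOSC10, the other nuclear nuclease, was at -0.33 before and -0.39 after correction.

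DIS3L2 is a related nuclease that works without the exosome, on RNA with added uridines. It had 19.9 and 19.7 CPM in input and 22.3 and 19.4 in RIP, with overlap between groups, and was not called (0.08, adjusted p = 0.5096). Among the SKI subunits, which thread RNA into the cytoplasmic exosome, WDR61 was higher and the others lower. WDR61, a small WD-repeat protein, had 62.9 and 63.5 CPM in input and 118 and 106 in RIP (0.83, SE 0.0761, adjusted p = 6.4e-08), but with library totals it was at 0.10 and not called. TTC37, the scaffold, had 178 and 179 CPM in input and 72.6 and 74.7 in RIP (-1.28, SE 0.0693, adjusted p = 1.2e-10). The helicase SKIV2L was at -0.49. WDR61 was at -0.18 after correction, a call (adjusted p = 0.03211) that was lost without the second RIP library and without the first input library. TTC37 was then at -0.52, and SKIV2L at -0.08 and not called.

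Of the 9 decapping and 5′ decay genes 3 were higher (33.3%) and 4 lower (44.4%), shares near the background of 38.0% and 39.7%. With library totals 0 were higher and 8 lower (88.9%), where 17.0% and 65.5% of all genes were. After correction the counts were 4 and 4 (44.4% each, background 34.7% and 35.5%). DCPS, XRN2 and EDC4 were the higher ones, and DCP2, DCP1A, PATL1 and XRN1 the lower ones. DCP2, the decapping enzyme, had the lowest log2 fold change, with 287 and 279.5 CPM in input and 75.2 and 88.5 in RIP. It was 3.46-fold lower (log2 fold change -1.79, SE 0.0813, adjusted p = 1.6e-11) and at -0.53 after correction. Its span overlaps that of MCC. DCP1A, its activator, had 74.6 and 76.3 CPM in input and 29.3 and 30.2 in RIP (-1.34, SE 0.0784) and was likewise at -0.53 after correction. DCP1B, the paralog, whose span overlaps CACNA1C, had 13.3 and 12.7 CPM in input and 12.8 and 15.5 in RIP, with overlap. It was not called (0.12), and at -0.28 it was just called after correction (adjusted p = 0.04469), a call lost without the first input library and without the first RIP library.

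PATL1, which bridges deadenylation and decapping, was at -1.31 and still at -0.90 after correction, the lowest corrected value of this group. EDC4, a large scaffold of decapping, was higher at 0.22 (adjusted p = 0.00769), and EDC3 was at 0.17 and not called. EDC4 lost its call without the first RIP library (0.21, adjusted p = 0.0938), and EDC3 gained one without the first input library (0.27, adjusted p = 0.00485). With library totals both were lower. After correction both were higher, EDC4 at 0.80 and EDC3 at 0.48. DCPS, which hydrolyses the cap left over after 3′ decay, had the highest log2 fold change of the group (0.60, SE 0.0994, adjusted p = 4.4e-05). It had 19.3 and 23.0 CPM in input and 31.5 and 32.8 in RIP. It is short (0.476) and was not called after correction (-0.16) or with library totals (-0.13).

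The 5′ exonucleases moved in opposite directions. XRN2, the nuclear enzyme, which takes part in transcription termination, had 144 and 151 CPM in input and 193 and 182 in RIP (0.35, SE 0.0697, adjusted p = 3.0e-04). With library totals it was lower, at -0.38. XRN1, the cytoplasmic enzyme, had 63.6 and 54.6 CPM in input and 35.9 and 31.8 in RIP (-0.81, SE 0.0939, adjusted p = 1.0e-06). The XRN1 mRNA is 3.67 times as long as the median gene, that of XRN2 1.20 times. After correction both were higher, XRN2 at 0.54 and XRN1 at 0.46.

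Nonsense-mediated decay genes ranged from UPF1 to SMG1. Of 7 genes 1 was higher (14.3%) and 4 lower (57.1%), where the background was 38.0% and 39.7%. With library totals 0 were higher and 6 lower (85.7%), where 17.0% and 65.5% of all genes were. After correction the counts were 3 and 3 (42.9% each, background 34.7% and 35.5%). UPF1, the helicase at the centre of the pathway, had 118 and 119 CPM in input and 216 and 203 in RIP, 1.77-fold higher (log2 fold change 0.82, SE 0.0689, adjusted p = 2.1e-08). With library totals it was at 0.09 and not called. Its mRNA has 1.92 times the median length, and after correction it was at 1.51 (SE 0.0636, adjusted p = 9.4e-13), the highest corrected value of the 49 genes. Leaving out any library kept that value between 1.46 and 1.58.

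SMG1, the kinase that phosphorylates UPF1, had the lowest log2 fold change of the decay genes on the TMM scale. It had 146 and 109 CPM in input, the widest gap between input libraries among the genes of this pathway, and 32.9 and 33.6 in RIP (-1.94, SE 0.114, adjusted p = 2.9e-10). Near-identical pseudogene copies of SMG1 exist, and how reads with several positions were handled is not given in the sources used here, so its counts are uncertain. Its length is 5.91 times the median gene, and it was at -0.29 after correction. UPF2, the adaptor that activates UPF1, was at -0.72 and, after correction, at -0.05 and not called.

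UPF3A and UPF3B, paralogs that link the exon junction complex to UPF2, differed although their lengths are alike (0.801 and 0.807). UPF3A had 18.1 and 17.5 CPM in input and 9.84 and 9.97 in RIP (-0.85, SE 0.112, adjusted p = 4.2e-06). UPF3B had 56.8 and 52.5 CPM in input and 55.2 and 53.5 in RIP, which overlap (-0.01, adjusted p = 0.9293). After correction UPF3A was at -1.13, the lowest value among the 49 genes, and UPF3B at -0.28.

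SMG5, an adaptor for dephosphorylation and decay and the most abundant gene of the pathway per length, had 228 and 223 CPM in input and 245 and 248 in RIP. The groups did not overlap, but the difference did not pass the test (0.13, adjusted p = 0.09325); it did without the first input library (0.14, adjusted p = 0.04376). After correction SMG5 was at 0.65 and called. SMG6, the endonuclease of the pathway, was at -0.32 before and 0.47 after correction. The first of these calls was lost without the second RIP library (-0.25, adjusted p = 0.05448). The spans of SMG5 and SMG6 overlap those of other protein-coding genes, TMEM79 for SMG5 and HIC1 and SRR for SMG6.

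All 4 microRNA silencing genes were lower, with library totals too (background 39.7% and 65.5%). All 4 lie in the longest length bin, where 79.5% of all genes were lower on the TMM scale. After correction 1 was higher and 2 lower (background 34.7% and 35.5%). DICER1, the nuclease that cuts microRNA precursors, had 150.0 and 139.7 CPM in input and 37.2 and 46.8 in RIP. It was 3.45-fold lower (-1.79, SE 0.0942, adjusted p = 8.7e-11) and at -0.64 after correction. The TNRC6 proteins bring CCR4-NOT to mRNAs bound by Argonaute. TNRC6A had 81.4 and 69.9 CPM in input and 26.1 and 27.3 in RIP (-1.50, SE 0.0907). TNRC6B had 131 and 116 CPM in input and 68.4 and 61.0 in RIP (-0.94, SE 0.0822). TNRC6C had 25.9 and 20.7 CPM in input and 9.99 and 11.1 in RIP (-1.15, SE 0.125). None of them overlapped between groups, where 89.2% of all genes did not. TNRC6B is the longest of the 49 mRNAs, at 6.55 times the median gene, and after correction it was higher (0.79), TNRC6A lower (-0.39) and TNRC6C not called (0.09, adjusted p = 0.4588). The span of TNRC6C overlaps that of TMC6.

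The balance between related genes gives a comparison that no scaling between libraries can move, since both genes are read in the same library. DCP1A over DCP1B was 1.82 and 1.95 in FPKM in input and 0.742 and 0.636 in RIP, so DCP1A had the higher level of the pair in input and the lower one in RIP. XRN1 over XRN2 was 0.145 and 0.119 in input and 0.0609 and 0.0575 in RIP. UPF3A over UPF3B went from 0.321 and 0.337 to 0.179 and 0.189, and DIS3 over DIS3L from 1.92 and 2.10 to 3.62 and 3.20. TNRC6A over TNRC6B was 1.33 and 1.28 in input and 0.816 and 0.961 in RIP. In contrast CNOT7 over CNOT8 was 1.70 and 1.81 in input and 1.86 and 1.90 in RIP, a change of 1.07-fold in the mean. CNOT6 over CNOT6L went from 1.63 and 1.34 to 1.81 and 2.23.

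Of the 11 ratios in the plot of related genes, TNRC6B over TNRC6C overlapped between input and RIP and the others did not. With 2 libraries a group, the smallest p of an exact permutation test (two-sided) is 0.33, so these ratios are given as values. The length trend was not taken out of these ratios. UPF3A and UPF3B have lengths of 0.801 and 0.807, and CNOT7 and CNOT8 of 0.853 and 0.850. The other pairs with values above differ in length, such as DCP1A and DCP1B (2.16 and 0.704) and XRN1 and XRN2 (3.67 and 1.20). After length correction the fold changes within these named pairs lay closer together (-0.53 and -0.28, 0.46 and 0.54), as did those of CNOT6 and CNOT6L. Those of DIS3 and DIS3L (1.36 and -0.12) and of TNRC6A and TNRC6B (-0.39 and 0.79) lay farther apart.

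**Figure D4:**
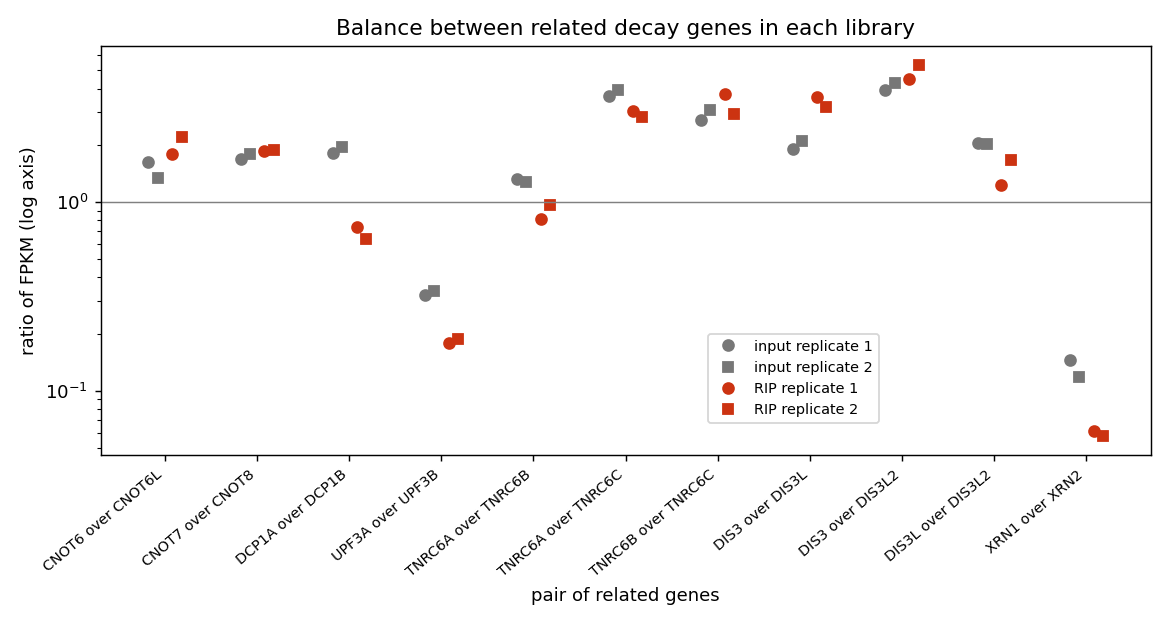
Ratio of FPKM (log axis) between related decay genes within each of the 4 libraries; grey symbols are input, red symbols RIP, with circles for the first and squares for the second replicate, and the line marks equal levels. DCP1A over DCP1B and TNRC6A over TNRC6B cross the line between input and RIP, while CNOT7 over CNOT8 stays between 1.70 and 1.90.

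Other genes of the same pathways, from a list that includes former and current symbols (68 of 77 symbols were in the table, all of them tested), were called about as often as the background on the TMM scale. Of the 68, 26 were higher and 28 lower (38.0% and 39.7% of all genes), with a median of -0.08. After length correction 21 were higher and 24 lower (34.7% and 35.5% of all genes), with a median of -0.07. With library totals 9 were higher and 53 lower (17.0% and 65.5% of all genes). The largest rises were those of LSM2 and LSM4, subunits of the Sm-like rings that bind mRNA ends before decapping or U6 snRNA in splicing. LSM2 rose from 42.4 ± 2.60 to 172 ± 3.40 CPM (SD, n = 2 each; log2 fold change 2.02, SE 0.0753) and LSM4 was at 1.96. All of LSM1 to LSM7 were higher (background 38.0%), with library totals 6 of the 7 (17.0%), and after correction 4 (34.7%). These mRNAs are short, with lengths of 0.119 to 0.77. In the shortest and second length bins 75.4% and 54.3% of all genes were higher on the TMM scale. The lowest were DGCR8, the partner of DROSHA in cutting primary microRNAs (-1.43, SE 0.0806), and PAPD5, a poly(A) polymerase that tags RNA for the exosome (-1.31, SE 0.0926). After correction LSM2 and LSM4 were at 0.73 and 1.42, and DGCR8 and PAPD5 at -0.92 and -0.23.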

How the data were processed

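RNA from Flag-SIRT7 pull-down and total RNA (2 libraries each), freed of ribosomal RNA, was sequenced. The submitters' processing notes name hg19 and, among the tools, Cuffdiff 2.2.1, TopHat2 2.0.13, Bowtie2 2.2.6 and cutadapt 1.5. How multi-mapped reads were handled, the strandedness and the gene annotation were not given in the sources used here. The deposited table holds, per gene and library, estimated counts of fragments (98.08% whole), the authors' scaled fragments (a signal) and FPKM; replicates 0 and 1 of the table were taken as 1 and 2 of the titles. Estimated counts were rounded. edgeR 4.0.16 (R 4.3.3) with filterByExpr, TMM and the quasi-likelihood test gave log2 fold changes of RIP over input for 14555 genes, with Benjamini-Hochberg adjustment over all of them and a threshold of 0.05. Effective length is scaled fragments over FPKM, relative to the median tested gene; its trend was taken out with lowess (span 0.3) per library.

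The members and lists were chosen with earlier results of these data known. Values per library are given for the highest, lowest and most abundant (FPKM) gene of each group and for related genes. The 2 genes of the wider list with the largest change each way are named. Symbols of neighbouring genes came from a RefSeq table (GRCh38.p14), which is another build, so no coordinates are printed. Of the members 46 matched it by symbol and 3 by synonym. Fragments are not unique molecules. Alternatives were library totals, DESeq2 1.42.0, limma 3.58.1 on log2(FPKM + 1) and log2(FPKM + 0.1), no filter, the replicate block, the 10 most abundant genes left out, and each library left out. Scripts were tested on simulated data.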

Additional observations from a re-analysis of the deposited data

How the results depend on the processing

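Most changes of direction came with library totals or with the length correction. With library totals in place of TMM, the number of decay genes higher was 3, the CCR4-NOT median -1.267, the nonsense-mediated decay median -1.055, the exosome median -0.237 and the decapping median -0.608. DCP1B (-0.608), DCPS (-0.126), EDC3 (-0.564), EDC4 (-0.507), XRN2 (-0.383), EXOSC6 (-0.165), EXOSC8 (-0.309), EXOSC9 (-0.718), DIS3 (-0.398), DIS3L2 (-0.656) and SMG5 (-0.604) changed sign. With the length trend taken out, the medians were -0.468 for CCR4-NOT, -0.054 for nonsense-mediated decay, -0.087 for the exosome and -0.16 for decapping, and the sign changed for DCP1B (-0.276), DCPS (-0.16), XRN1 (0.457), EXOSC6 (-0.052), EXOSC7 (-0.331), EXOSC8 (-0.394), EXOSC9 (-0.669), WDR61 (-0.177), SMG6 (0.465), TNRC6B (0.792) and TNRC6C (0.091). On log2(FPKM + 1) the CCR4-NOT median was -0.465. UPF3B, near 0 throughout, was at 0.01 with either FPKM pseudocount and 0.009 with DESeq2. Leaving out each library gave 12 to 15 genes higher, 27 to 28 lower, and medians of -0.596 to -0.481 for CCR4-NOT, 0.455 to 0.543 for the exosome, -0.01 to 0.151 for decapping and -0.385 to -0.253 for nonsense-mediated decay. The sign then changed for uncalled genes near 0: UPF3B (-0.046 to 0.045, and 0.021 with the second RIP library left out), CNOT11 (-0.144 to 0.004), DIS3L2 (-0.023 to 0.179), DCP1B (-0.01 to 0.256) and EXOSC9 (-0.038 to 0.074). With the replicate block all 49 genes kept their call and direction; the deviations of same-numbered libraries correlated at 0.0409, so the numbers were not taken as pairs. No count filter, and leaving out the 10 most abundant genes, changed no call of a decay gene. Other settings of the length correction, chosen after seeing the data, gave 12 to 13 genes higher and 26 to 28 lower. The cause of these changes was not tested, apart from the common shift that library totals give by construction.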

Other observations

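Some genes of the wider decay list, chosen here after their values were seen, form small families. The 4 Argonaute genes, whose proteins carry microRNAs, were all lower on the TMM scale (background 39.7%). Their log2 fold changes were -1.12 for AGO1, -1.24 for AGO2, -0.99 for AGO3 and -1.28 for AGO4. Library totals gave -1.85, -1.97, -1.72 and -2.01, where the median of all genes was -0.76. AGO1 and AGO4 lie in the longest length bin, where 79.5% of genes were lower. AGO2 and AGO3 lie in the fourth, where 57.0% were. After the length trend was taken out AGO2, AGO3 and AGO4 were lower (-1.02, -0.72 and -0.32, background 35.5%) and AGO1 was not called (-0.10, adjusted p = 0.2417). TARBP2, a partner of DICER1, was higher at 1.86 and 1.15. The exon junction genes RBM8A and MAGOH, whose proteins bind each other, were at 0.95 and 0.92, and after correction at 1.56 and -0.50. Of the same junction, EIF4A3, MAGOHB and CASC3 were at 0.52, 0.47 and -0.72, and after correction at -0.08, 0.505 and -0.30. The ribosome rescue factors PELO and HBS1L were at 0.90 and 0.16, and after correction at 0.89 and 0.98.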
